A study of Rattus norvegicus with 6 samples.

Results

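Gja1 encodes the connexin Cx43, and its transcript ENSRNOT00000001054.4 was followed here in muscle of the rat basilar artery, as 1 of 31715 transcripts in the deposited table. It was chosen by its values in this same contrast of diets, so its levels and fold changes are given as a description, with no test. The table lists transcripts without gene names, and 0 of its 31715 identifiers matched the RefSeq gene table used here, so the pairing of this identifier with Gja1 was taken as given.

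The study fed male rats a diet rich in salt, which raises blood pressure, and sequenced the muscle layer of the basilar artery, the vessel that supplies the brainstem. All rats were of the Sprague-Dawley strain (spelled Spraque-Dawley in the labels), were 6 weeks old and weighed 180 to 200 g at purchase. The control group ate plain chow, and the high-salt diet group ate the same chow with an extra 4% of NaCl by weight, for 4 weeks. Both groups had 3 rats with 1 library each. Cages held 3 rats, and which of the sequenced rats shared a cage is not given in the sources used here, so the part of the cage in any difference between the diets was not tested. The endothelium, the inner cell layer of the vessel, had been scraped away with wires in both groups.

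Cx43 is a membrane protein whose hexamers dock between neighbouring cells to form gap junctions, channels that pass ions and small molecules directly from cell to cell. In vessel walls such channels couple muscle cells electrically and help them to contract together. Cx43 is also made by endothelial cells, fibroblasts and, in the brain, astrocytes. In a piece of vessel wall, fewer cells of a type and less RNA per cell cannot be told apart. Markers of these cell types were not looked up here, since the identifiers were not paired with genes. The labelled cell type was therefore not checked, and which cells the Gja1 reads came from was not tested.

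Gja1 was an abundant transcript in every library. In the control group its estimated count was 2209 in replicate 1, 3501 in replicate 2 and 2847 in replicate 3. In the high-salt diet group it was 4783 in replicate 1, 5381 in replicate 2 and 7714 in replicate 3. The high-salt libraries held the 3 highest counts, although the deepest library was control replicate 2. The counting error of such counts, taken as the square root of the count, was lowest in high-salt replicate 3, at 1.14% of the count, and highest in control replicate 1, at 2.13%. It was far smaller than the spread between rats given below. The count was not a whole number in 6 of 6 libraries (tolerance 0.001). If the counts are the estimates of Kallisto, the program that the study names for them, some reads also fitted other transcripts and were divided among them. How many was not analysed here.

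Levels were compared as CPM, the count divided by the library size in units of 1000000 counts, with library sizes scaled by the trimmed mean of M values (TMM), which sets the bulk of transcripts level between libraries. In the control group, Gja1 stood at 187 CPM in replicate 1 (95% exact Poisson interval, 179 to 195, for counting error only), at 139 CPM in replicate 2 (134 to 144) and at 125 CPM in replicate 3 (121 to 130). In the high-salt diet group it stood at 262 CPM in replicate 1 (254 to 269), at 283 CPM in replicate 2 (276 to 291) and at 376 CPM in replicate 3 (368 to 385). The groups did not overlap, and the lowest high-salt library lay 74.6 CPM above the highest control library. Control rats had a mean of 150 CPM ± 32.5 (SD, n = 3). Rats fed high salt had a mean of 307 CPM ± 60.8 (SD, n = 3), so the ratio of the means was 2.04. Relative to its mean, the spread between rats was alike in both groups, at 21.6% and 19.8%. The fitted log2 fold change of edgeR was 1.03.

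**Figure D1:**
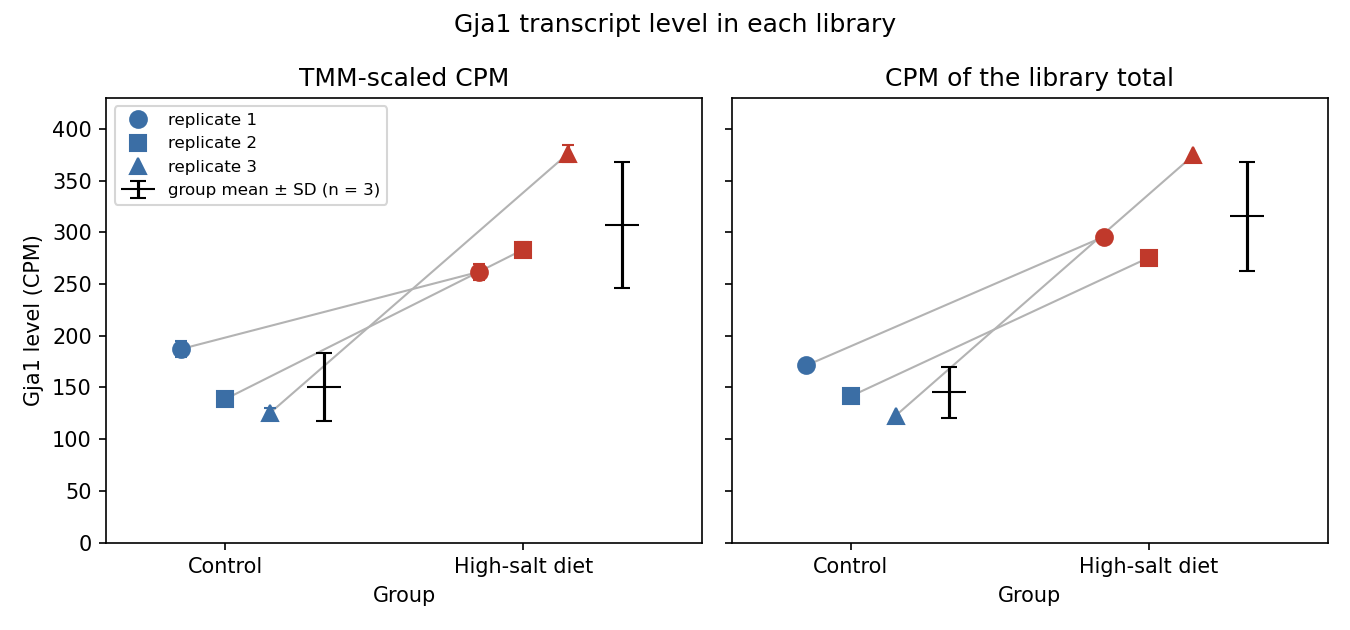
Gja1 level in CPM (vertical axis) in each library of the control and high-salt diet groups, scaled by TMM on the left and by the library total alone on the right. Symbols are the replicates, grey lines join libraries with the same replicate number, coloured bars on the left are 95% Poisson intervals and black bars are the group mean ± SD. All 3 high-salt libraries lie above all 3 control libraries on both scales.

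Scaling by the library total alone left the groups apart as well. On that scale Gja1 made up 171, 142 and 123 CPM in control replicates 1, 2 and 3. It made up 296, 276 and 375 CPM in high-salt replicates 1, 2 and 3. The replicate 1 libraries moved most between the scales, since their TMM factors were 0.915 (control) and 1.13 (high salt), while the other 4 factors lay between 0.972 and 1.02. The 20 transcripts with the highest summed count took 11.9% of all counts of control replicate 1, and 6.83% of those of high-salt replicate 1. In the other libraries they took 11.8% and 17.7% (control replicates 2 and 3) and 15.3% and 15.8% (high-salt replicates 2 and 3). The part of these differences in the level of Gja1 was not tested, but with those 20 transcripts left out of the library sizes the fitted log2 fold change was 1.02.

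By rank, Gja1 belonged to the most abundant transcripts in both groups. Ranks here order shares of reads, which also depend on transcript length, so they do not order molecules. Gja1 ranked 1022 of 21154 detected transcripts in control replicate 1, 1220 of 18961 in control replicate 2 and 1294 of 20145 in control replicate 3. It ranked 506 of 20839 in high-salt replicate 1, 504 of 16831 in high-salt replicate 2 and 328 of 19682 in high-salt replicate 3. It thus stood within the top 4.83% to 6.43% of detected transcripts in the control libraries and within the top 1.67% to 2.99% in the high-salt libraries. By its mean CPM over the 6 libraries it ranked 649 of the 24253 transcripts with at least 1 count.

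The labels number the rats 1 to 3 in each group. On the log2(CPM + 1) scale, Gja1 was higher in the high-salt library by 0.48 for replicates 1, by 1.02 for replicates 2 and by 1.58 for replicates 3. The mean of the 3 differences was 1.03 ± 0.55 (SD, n = 3). The size thus differed widely between the pairs although the direction was shared. Over the 9 ways to set a high-salt library against a control library, the difference was above 0 in 9, with the same lowest and highest values (0.48 and 1.58). Libraries of one group differed by up to 0.57 in the control group (replicates 1 and 3) and by up to 0.52 in the high-salt diet group (replicates 1 and 3). With TMM, the smallest difference between the diets, that of replicates 1, was therefore smaller than the largest difference between rats on the same diet, and the other 8 were larger. This depended on the scaling, as a check added after seeing the data showed. With library totals alone, replicates 1 differed by 0.79 and the smallest of the 9 differences was 0.68, so all 9 exceeded the largest difference within a group, 0.48. With DESeq2 size factors and with upper-quartile scaling, the smallest was 0.43 and 0.41, and 7 of the 9 exceeded the largest difference within a group (0.62 and 0.69).

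Across the transcriptome, the deviations of the replicate 1 libraries from their group means correlated at 0.517, the highest value of the same-numbered pairs. These libraries were not alike in every way, since their TMM factors, 0.915 (control) and 1.13 (high salt), were the lowest and the highest of all libraries. Gja1 itself did not follow the shared deviation. It lay above its group mean by 0.33 (log2) in control replicate 1 and at -0.21 from its group mean in high-salt replicate 1. Without both replicate 1 libraries, an alternative chosen after seeing the data, its mean level was 131 CPM with control chow and 327 CPM with high salt. The fitted log2 fold change was then 1.32.

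To see how this difference compares with that of other transcripts of similar abundance, Gja1 was set beside the 500 transcripts nearest to it in mean log2(CPM + 1), 250 above and 250 below, whose means ran from 7.36 to 8.27. Gja1 had a mean of 7.74 and a difference of 1.03, high-salt minus control. The 500 neighbours had a median difference of -0.04, and their 5th and 95th percentiles were -0.46 and 0.45. Among them, 0 differed by as much as Gja1 in either direction. The largest difference in the direction of Gja1 was 0.95 and the largest in the other direction was -0.92. Gja1 was chosen for its difference, so its place at the edge of this range describes it and tests nothing.

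Gja1 combined its large difference with a modest spread between rats. Its pooled SD within the groups was 0.29 on the log2 scale, against a median of 0.44 for the neighbours, and 102 of the 500 neighbours had a smaller one. The dispersion that edgeR fitted to it, which also draws on the spread of other transcripts, was 0.139, against a median of 0.164 for the neighbours. Groups did not overlap, with high-salt libraries above, for 7 of the 500 neighbours (1.4%) and for 514 of all 24253 transcripts (2.12%). Nothing is read from the modest spread of Gja1 or from its groups not overlapping, since its choice on this contrast favoured both.

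**Figure D2:**
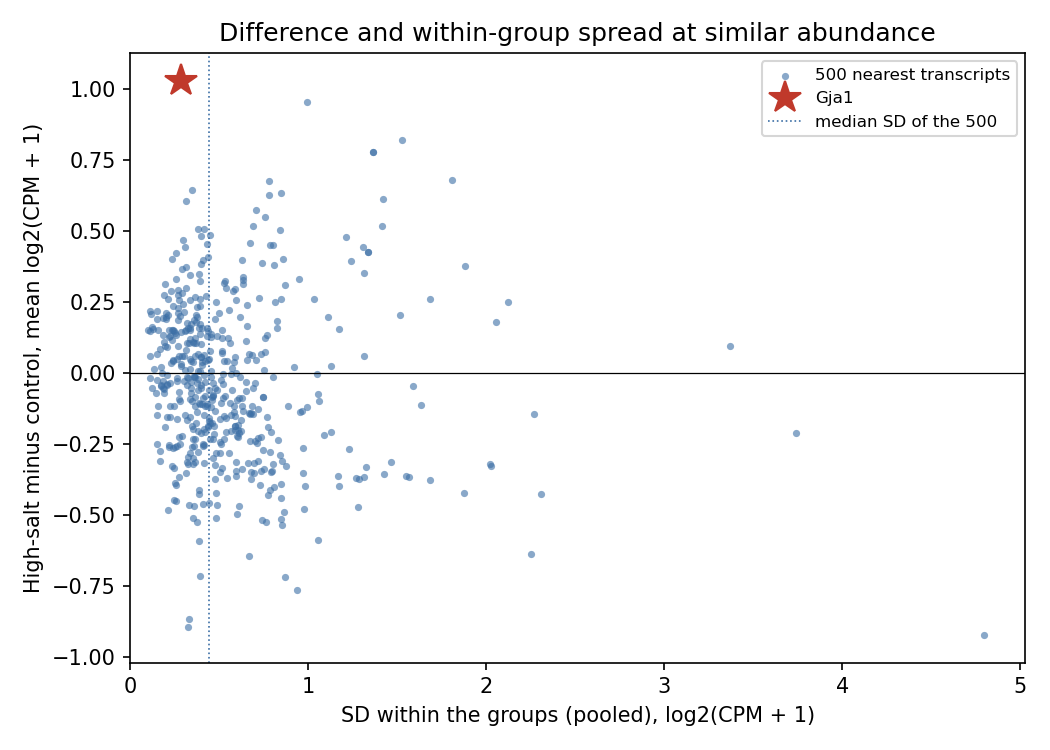
Difference in mean log2(CPM + 1), high-salt minus control (vertical axis), against the pooled SD within the groups (horizontal axis) for Gja1 (star) and the 500 transcripts nearest in level (dots), with the median SD of the 500 as a dotted line. Gja1 lies above all dots, at a difference of 1.03 and an SD of 0.29.

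The neighbour that came closest to Gja1 had another pattern. This transcript, ENSRNOT00000033359.5, was named after its values were seen. It stood at 45.3, 226 and 249 CPM in control replicates 1, 2 and 3. Its high-salt levels were 206, 312 and 296 CPM. Its difference of 0.95 thus came with 1 low library, control replicate 1, and its groups overlapped. Those of Gja1 did not, but its choice on this contrast favoured that.

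The number of neighbours with a difference at least as large as that of Gja1 did depend on single libraries. It was 13 of 500 without high-salt replicate 1, 12 without control replicate 3 and 9 without control replicate 2. It was 1 without control replicate 1, 1 without high-salt replicate 3 and 0 without high-salt replicate 2. Without both replicate 1 libraries it was 2. Each of these comparisons took the neighbours anew from the libraries that were kept. Among all 1333 transcripts within 1 log2 unit of Gja1, 2 had a difference as large.

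The same-numbered pairs can be set against the neighbours one by one. In replicates 1, 106 of the 500 neighbours differed upward by at least as much as Gja1, and the differences of the neighbours had an SD of 0.80. In replicates 2 and in replicates 3 it was 2 of 500 each, with SDs of 0.31 and 0.38. The replicate 1 pair therefore placed Gja1 well inside the range of its neighbours, and the other pairs placed it near the top.

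Few transcripts more abundant than Gja1 differed by as much between the diets. Of the 656 with a higher mean log2(CPM + 1), 0 were higher in the high-salt diet group by 1 log2 unit or more, and 1 was lower by as much. That transcript, ENSRNOT00000020532.7, named after its values were seen, stood at 539, 995 and 1789 CPM in the control libraries. In the high-salt libraries it stood at 239, 417 and 459 CPM, so its groups did not overlap either, in the direction opposite to Gja1.

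**Figure D3:**
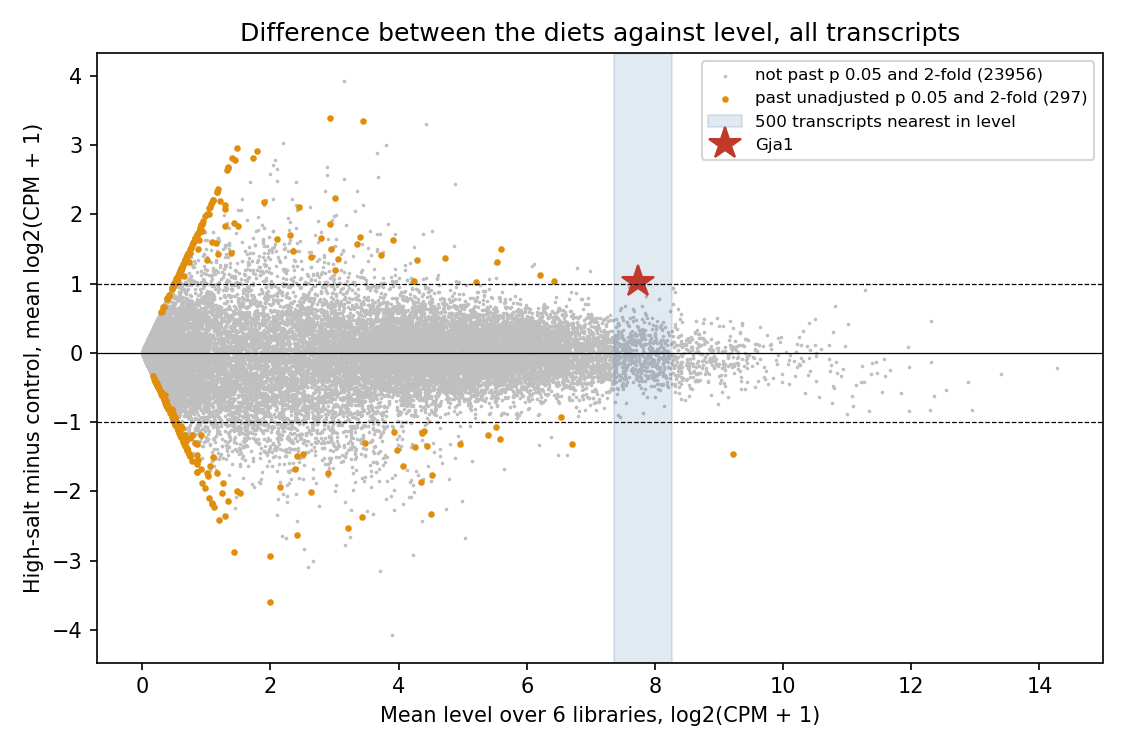
Difference in mean log2(CPM + 1), high-salt minus control (vertical axis), against the mean level over the 6 libraries (horizontal axis) for 24253 transcripts, with those past an unadjusted p of 0.05 and a fitted 2-fold change in orange, 1 log2 unit as dashed lines and the range of the 500 neighbours shaded. Gja1 (star) lies far to the right of nearly all orange points.

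Across all transcripts, the exact test of edgeR with an unadjusted p under 0.05 and at least a 2-fold change called 140 of 24253 higher in the high-salt diet group (0.577%) and 157 lower (0.647%). Gja1 was 1 of the 140, and nothing is read from this, since it was chosen on this contrast. Nor did the call hold throughout: Gja1 missed it under 4 of 17 alternatives. Upper-quartile scaling missed the 2-fold threshold alone (log2 fold change 0.996). The fits without control replicate 2 (0.96), without control replicate 3 (0.91) and without high-salt replicate 3 (0.86) missed both the 2-fold and the p threshold. After Benjamini-Hochberg adjustment over all transcripts, 1 transcript passed together with the 2-fold change (0.00412%). It was not Gja1 but ENSRNOT00000084640.1, named after its values were seen, at 7.71, 3.49 and 9.12 CPM in the control libraries and at 0 in the 3 high-salt libraries. With the replicate number as a block in the quasi-likelihood test of edgeR, after its expression filter, the calls were 83 higher and 82 lower, and 0 passed after adjustment against 327 at an unadjusted p under 0.05. The calls of the exact test moved by over 1.5 times without control replicate 2 (83 higher) and without high-salt replicate 1 (241 higher and 281 lower).

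Gja1 was among the most abundant of the called transcripts. Its high level is not particular to that set, since it ranked 649 of all 24253 transcripts by mean CPM, within the top 2.68%. Of the 297 called in either direction, it had the second highest mean CPM, after ENSRNOT00000020532.7, and the highest of the 140 that were higher in the high-salt diet group. The median of the 297 was 1.43 CPM, and the next of the 140 after Gja1 stood at 94.7 CPM. Of the 297, 61 had a count in all 6 libraries, and 174 had none in the group where they were lower. The median and these counts were not taken over all transcripts, so they are not read as a trait of the called set. For Gja1 the comparison thus rested on 2209 counts or more in every library, while for most called transcripts it rested on few counts or on none in one group.

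Among the 500 neighbours, the pattern over the 6 libraries most like that of Gja1 was that of ENSRNOT00000088042.1 (Pearson r = 0.83, Spearman rho = 0.89, a description over 6 libraries). It stood at 168, 154 and 160 CPM in the control libraries. In the high-salt libraries it stood at 163, 214 and 299 CPM, so that high-salt replicate 3 was its highest library, as for Gja1, but its groups overlapped. Next came ENSRNOT00000039954.5 (Pearson r = 0.79, Spearman rho = 0.66). It stood at 310, 204 and 194 CPM in the control libraries and at 267, 287 and 294 CPM in the high-salt libraries, so that its highest library was control replicate 1. No neighbour reached an r of 0.9 (0 of 500), and the median r was 0.01.

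The transcripts next to Gja1 in mean level did not share its pattern. ENSRNOT00000058234.3, next above, stood at 526, 178 and 146 CPM in the control libraries and at 255, 167 and 158 CPM in the high-salt libraries. ENSRNOT00000020681.6, next below, stood at 419, 170 and 137 CPM in the control libraries and at 276, 190 and 175 CPM in the high-salt libraries. Both were highest in the replicate 1 libraries of each group, and their groups overlapped.

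The fitted fold change of Gja1 kept its direction under all 17 alternatives of scaling, filter, rounding, test and left-out libraries, but was under 2-fold in the 4 named above. It ran from 0.86 (log2), without high-salt replicate 3, to 1.32, without both replicate 1 libraries. With all libraries kept, it ran from 0.996 with upper-quartile scaling to 1.12 with library totals alone. The left-out library therefore mattered more than the scaling, the filter or the test.

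**Figure D4:**
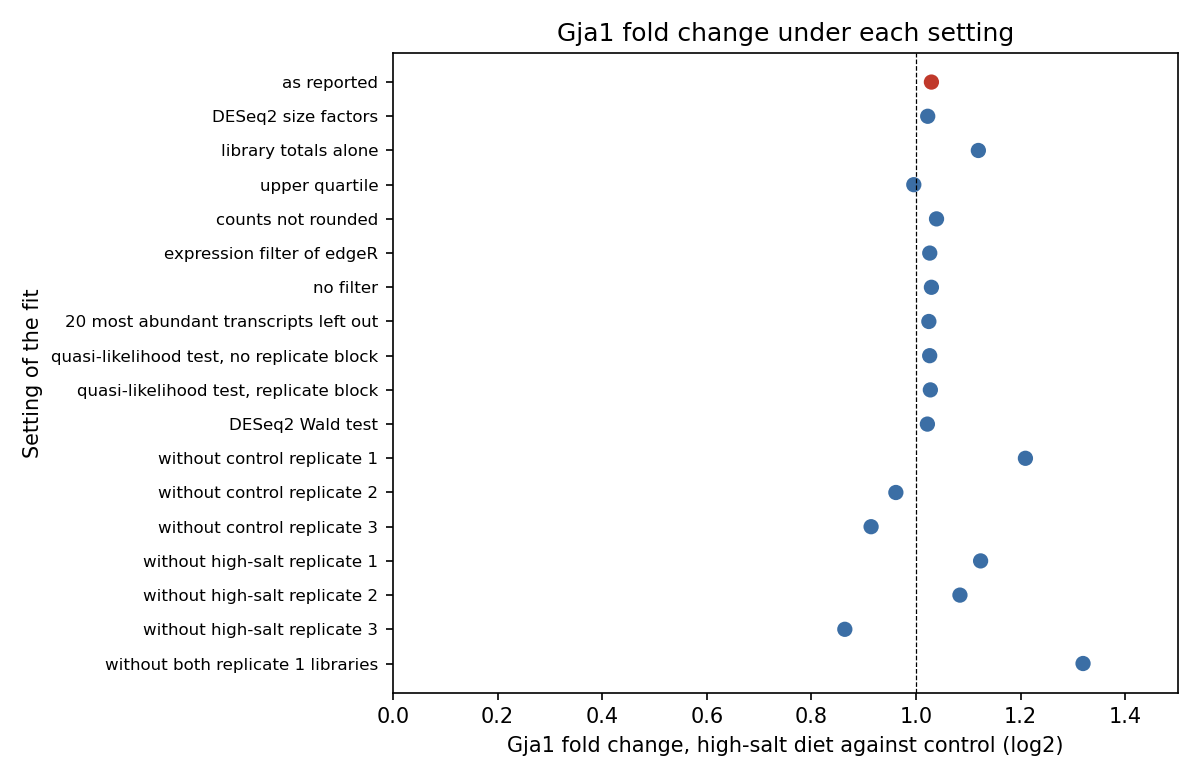
Fitted log2 fold change of Gja1, high-salt diet against control (horizontal axis), under each setting of the fit (vertical axis), with the reported value in red and a 2-fold change as a dashed line. Values lie between 0.86 and 1.32, and the settings that leave out libraries spread most.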

How the data were processed

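Per the labels and the methods of the study, polyadenylated RNA of each single rat was sequenced on an Illumina HiSeq instrument, reads were trimmed with Trimmomatic, and Kallisto assigned them to transcripts. The methods also name a program that mapped reads to the genome, and the deposited counts were taken to be those of Kallisto. The authors deposited an estimated count per transcript, scaled neither for depth nor for length. Column totals were 12896098, 24718338 and 23198636 in control replicates 1, 2 and 3, and 16159272, 19522923 and 20589033 in high-salt replicates 1, 2 and 3. No column was left unmapped (0).

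Counts were rounded, transcripts with at least 1 rounded count were kept, and the exact test of edgeR 4.0.16 was run with TMM scaling in R 4.3.3. DESeq2 1.42.0 gave alternatives. The script was tested on simulated data. Intervals cover counting error only. Log levels used a pseudocount of 1 CPM. The rats share replicate numbers. Across 17915 transcripts, which are not independent, deviations from the group means correlated at 0.517, 0.181 and 0.212 for replicates 1, 2 and 3. Each was over 0.1, and by this rule set beforehand the libraries were handled as same-numbered pairs. Deviations within a group cancel out, so these values are not separate. A shared deviation of replicates 1 by itself raises the values among replicates 2 and 3. The rule therefore cannot decide whether the rats were paired. Control replicate 2 with high-salt replicate 3 also passed 0.1 (0.162), and control replicate 3 with high-salt replicate 2 reached 0.0885, so replicates 2 and 3 were hardly told apart. What a shared replicate number stands for is not given in the sources used here.

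The member and the lists were chosen with earlier results of these data known. Transcripts were named by this rule: Gja1, of the 5 neighbours with the highest Pearson r to it at most 2, and the transcripts next above and next below it in mean level. The other 3 identifiers printed were chosen after their values were seen, as stated beside each. Lists of connexins, connexin partners and cell type markers were not used here, since the identifiers were not paired with genes.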

Additional observations from a re-analysis of the deposited data

How the results depend on the processing

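The mean levels of Gja1 and its mean same-numbered difference moved by less than 1 SD between replicates under every alternative run for them. The rank, 649 with all libraries, ran from 592 to 792 with each replicate left out in turn. It was 592 to 606 without a control library and 693 to 792 without a high-salt library. Leaving out a library also shifts the mean CPM toward the other group, so this range is not a measure of single libraries alone. The rank moved by more than its SD within the groups (123) under 1 of 9 alternatives, without high-salt replicate 3 (792). The share of neighbours with a smaller difference than Gja1 was 100% with all libraries and ran down to 97.4%, where 13 of 500 neighbours differed by as much, without high-salt replicate 1. The fitted log2 fold change moved by less than that SD (0.29) under 16 of 17 alternatives and reached 1.32 without both replicate 1 libraries, an alternative chosen after seeing the data. With each replicate left out in turn it ran from 0.86 to 1.21, and Gja1 lost its call (unadjusted p under 0.05 and 2-fold) in 3 of these fits and with upper-quartile scaling. With the replicate block it was 1.03, as without the block.

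Counts of called transcripts moved more. After the expression filter of edgeR, 62 were higher and 71 lower, with fewer transcripts tested (17915). The quasi-likelihood test gave 53 and 65 with no replicate block, and 83 and 82 with the replicate block. Leaving out each replicate in turn gave 83 to 241 higher and 110 to 281 lower. Without both replicate 1 libraries, 228 were higher and 164 lower. The cause was not tested. After Benjamini-Hochberg adjustment, the exact test after the expression filter passed 2 transcripts, against 141 at an unadjusted p under 0.05. The quasi-likelihood test without the block passed 0, also against 141, and DESeq2 passed 6, against 223.

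Depth did not limit the Gja1 values, which rest on 2209 counts or more. With 3 rats a group, the spread between rats did. The estimated counts cannot show how many Gja1 reads were shared with other transcripts.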
